A study of Rattus norvegicus with 8 samples.

Results

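The genes of the endoplasmic reticulum (ER) stress response were examined in the striatum of rats that had self-administered methamphetamine (METH) or saline. The 31 genes were listed by symbol and known function, with earlier results of these data known: ER chaperones, genes of ER-associated degradation, and genes of the unfolded protein response and the integrated stress response. Of these, 30 were listed among the 17337 genes of the count table, and 29 passed the filter on low counts, which left 12014 genes in all. Derl2 was not analysed here, and Trib3 was read too rarely to pass the filter. All 8 animals were wild-type male Sprague-Dawley rats trained to press a lever for food before a jugular catheter was placed, and their age is not given in the sources used here. The 4 METH rats could press for 0.05 mg/kg METH per infusion in daily sessions of 2 h over 16 days, and the 4 saline rats went through the same surgery and sessions with saline. Per the methods, more METH than saline rats entered self-administration, and 4 in each group with stable lever pressing were selected for plasma sampling. The rats were killed under ketamine and xylazine to obtain the brains. The time between the last session and death is not given in the sources used here. Poly(A) RNA of the striatum was sequenced, 1 library per rat.

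The ER is the compartment in which secreted and membrane proteins fold. When unfolded proteins build up there, the membrane sensors IRE1 (gene Ern1), ATF6 and PERK (gene Eif2ak3) start the unfolded protein response: IRE1 splices the Xbp1 mRNA into the form that encodes an active transcription factor, ATF6 is cut to release a factor that induces chaperone genes, and PERK phosphorylates eIF2alpha, which slows translation and favours that of Atf4. The last branch is shared with other stresses and is called the integrated stress response. Read counts per gene show the amount of each mRNA. They do not show the splicing of Xbp1, the cleavage of ATF6 or the phosphorylation of eIF2alpha.

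Many chaperone genes carry the ER stress response element (ERSE) near their start: the letters CCAAT, any 9 bases, and CCACG, bound by NF-Y and ATF6 or XBP1. A shorter form, ERSE-II, reads ATTGG, any base, and CCACG. The RefSeq promoter windows of assembly GRCr8, from 250 bases before to 50 bases after each start, were searched on both strands, and 25 of the 31 genes had such a window (Atf6, Derl1, Ern1, Manf, Pdia3 and Pdia6 were not matched). The ERSE was found in 7 of these 25 genes, against 0.0765% of the 27457 genes with a window (21 genes), and the ERSE-II in 3 of 25, against 0.0619% (17 genes). The genes were listed by known function, and many such genes are known to carry these elements, so the shares only describe the list. The counts over all genes include the listed genes. The ERSE and ERSE-II matches are shown with the fixed letters in capitals, and a relation of the elements to the fold changes was not tested.
Hspa5: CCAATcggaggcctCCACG
Xbp1: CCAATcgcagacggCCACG
Creld2: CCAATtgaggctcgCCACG
Dnajc3: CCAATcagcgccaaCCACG
Calr: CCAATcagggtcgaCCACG
Canx: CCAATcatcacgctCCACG
Hsp90b1, distal: CCAATcgaaaggagCCACG
Hsp90b1, proximal: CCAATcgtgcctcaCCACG
Dnajb11: ATTGGcCCACG
Herpud1: ATTGGgCCACG
Hyou1, distal: ATTGGcCCACG
Hyou1, proximal: ATTGGgCCACG

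In Hspa5 the match lay from base -43 to base -25 on the strand of the gene, in Xbp1 from -65 to -47, and in Dnajb11 from -10 to the first transcribed base, counted from the RefSeq start. The matches of Calr, Creld2 and Hyou1 and the proximal one of Hsp90b1 lay on the opposite strand. The whole windows of Hspa5 (chr3:38452766-38453065, plus strand), Xbp1 (chr14:84604373-84604672, plus strand) and Dnajb11 (chr11:91672751-91673050, minus strand), all of GRCr8, are given as the context of these elements, in the direction of transcription.
Hspa5: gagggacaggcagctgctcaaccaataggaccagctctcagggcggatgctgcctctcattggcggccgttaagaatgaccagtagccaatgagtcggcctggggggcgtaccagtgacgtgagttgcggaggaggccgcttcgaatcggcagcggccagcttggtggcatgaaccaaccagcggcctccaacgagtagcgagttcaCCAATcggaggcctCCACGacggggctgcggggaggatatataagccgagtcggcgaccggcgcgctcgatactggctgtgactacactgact
Xbp1: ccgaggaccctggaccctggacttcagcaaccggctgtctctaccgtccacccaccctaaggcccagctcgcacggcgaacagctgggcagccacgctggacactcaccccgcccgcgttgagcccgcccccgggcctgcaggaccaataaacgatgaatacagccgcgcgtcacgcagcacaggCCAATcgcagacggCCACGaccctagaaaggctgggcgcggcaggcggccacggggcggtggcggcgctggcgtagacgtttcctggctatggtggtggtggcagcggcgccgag
Dnajb11: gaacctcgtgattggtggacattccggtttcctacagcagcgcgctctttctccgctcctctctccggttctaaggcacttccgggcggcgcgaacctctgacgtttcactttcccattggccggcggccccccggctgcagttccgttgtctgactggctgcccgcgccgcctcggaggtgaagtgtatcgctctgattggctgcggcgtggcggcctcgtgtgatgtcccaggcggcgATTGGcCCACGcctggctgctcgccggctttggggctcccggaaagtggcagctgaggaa

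A C/EBP-ATF element, by which ATF4 induces its target genes (the letters TGATGNAAN), was found in Chac1, Herpud1 and Trib3, 3 of the 25 genes, against 4.14% of all genes with a window. The XBP1 element TGACGTGG was found in Hyou1 alone among the 25, against 0.681% of all genes. It overlapped the distal ERSE-II of that gene, with which it shares letters. Such matches describe the sequence and are not measured binding.

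Total counts ranged from 18135939 to 21211920 per rat, and the floor of 3 counts corresponded to at most 0.169 CPM (CPM is a count relative to the TMM-scaled library size). METH rat 3 lay apart from the other rats on the first principal component (39.5, against -24.6 to 5.29). Saline rat 1 held 79.4 CPM in the sum of 5 cortical neuron markers, against 3.35 to 13.5 CPM in the other rats. The summed striatal projection neuron markers (13 of 13 genes detected in every rat) were at 15792 to 16769 CPM in saline rats and 16787 to 20708 CPM in METH rats, so that the sums did not overlap. Each of the 13 genes overlapped by itself, none was called, 5 had a log2 fold change below 0, and most of the difference in the sum came from Ppp1r1b (7169 CPM on average in saline rats, 8499 CPM in METH rats). The summed choroid plexus markers did not overlap either (5.30 to 6.76 CPM in saline rats, 6.90 to 10.4 CPM in METH rats). Among these, Otx2 was at 0 in all rats, Ttr at 0 in 3 of them, and 3 of 9 genes passed the filter. The sums of microglial, astrocyte, oligodendrocyte and endothelial markers overlapped between the groups. Among these markers, the microglial Cx3cr1 was called lower (log2 fold change -0.73, edgeR quasi-likelihood FDR = 0.0408), Opalin (oligodendrocytes), Slco1a2 and Tek (both endothelial) were lower in every METH rat than in every saline rat without being called, and Gjb6 (astrocytes) was higher in the same way. These markers were named after their values were seen. Groups overlapped in 9 of 10 microglial genes, 8 of 9 oligodendrocyte, 7 of 9 endothelial and 7 of 8 astrocyte genes tested. Log2 fold changes were below 0 in 7 of the 10, 7 of the 9, 8 of the 9 and 4 of the 8, in that order. Of all genes tested, 0.516% were called in either direction, and 3.75% were higher in every METH rat than in every saline rat. The share that was lower in every METH rat is not given here, so the lower markers have no such share beside them. At an unadjusted p below 0.05 (edgeR quasi-likelihood test), 2 microglial, 2 oligodendrocyte and 3 endothelial genes were lower and 0 higher. In astrocytes, 1 was higher and 0 lower. Of all genes, 4.88% were lower and 6.26% higher. The part of these marker levels in the results below was not tested. In bulk tissue, fewer cells of a type and less RNA per cell cannot be told apart.

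Across the 29 genes tested, 1 gene, Manf, rose in METH rats and none fell. A gene was called where its edgeR quasi-likelihood FDR over all genes was below 0.05 and its mean log2 CPM was above 1. Manf alone is 3.45% of the 29 genes, against 0.449% of all genes tested that were called higher. At an unadjusted p below 0.05, 10 of the 29 were higher (34.5%, against 6.26% of all genes) and 0 were lower (against 4.88%). In 5 genes every METH rat was above every saline rat (17.2%, against 3.75% of all genes). The log2 fold changes of 20 of the 29 were above 0 (69%, against 48.6% of all genes), with a median of 0.15, where the median of all genes was -0.0055. The folding genes, that is the chaperones, disulfide isomerases and lectins, were 14 of the 29 genes tested. They were 6 of the 10 genes that were higher at an unadjusted p below 0.05. Of the 14 folding genes, 13 were above 0, with a median of 0.19. A difference between the folding genes and the other genes was not tested. Without saline rat 1, 8 genes were higher and 1 lower at an unadjusted p below 0.05 and 19 were above 0, and without METH rat 3, 8 were higher, 0 lower and 20 above 0. In both cases no gene was called (edgeR quasi-likelihood test). Over all alternatives, 7 (with the replicate block and with total counts only) to 10 genes were higher, and the most that were lower was 2, without METH rat 2.

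**Figure D1:**
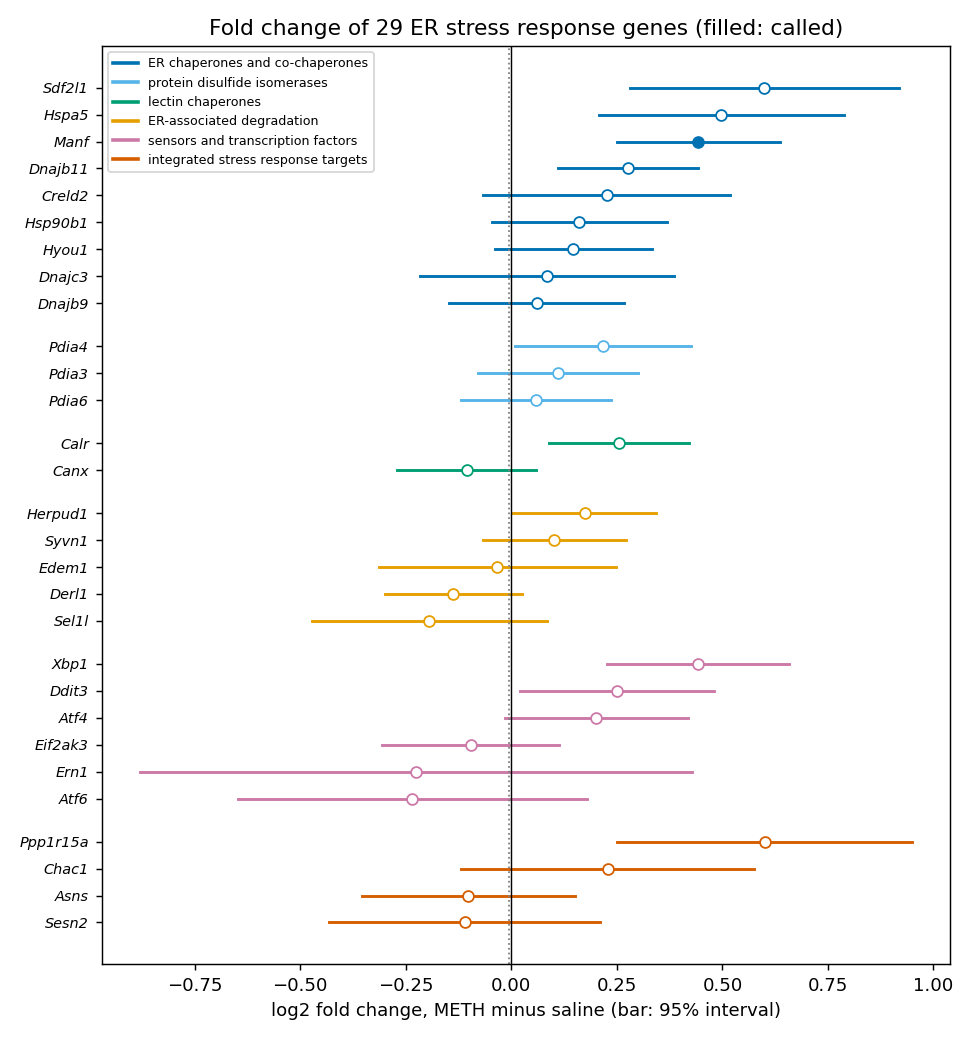
Log2 fold change (METH minus saline) of the 29 ER stress response genes on the x axis, 1 gene per line in blocks by role, with the 95% interval as a bar and a filled point for the called gene. The dotted line is the median of all genes (-0.0055). All 9 chaperones and co-chaperones lie above 0, Manf alone is filled, and Ern1, Atf6 and Eif2ak3 lie below 0 with intervals that include 0.

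Among the ER chaperone genes, Sdf2l1 encodes a partner of the chaperone BiP that acts with the ERdj co-chaperones. It was at 23.4, 28.8, 31.8 and 33.8 CPM in saline rats 1 to 4 and at 35.6, 41.9, 58.1 and 43.3 CPM in METH rats 1 to 4. METH rat 3 was the highest, and METH rat 1 was 1.84 CPM above the highest saline rat, so that the groups were adjacent without overlap. Its log2 fold change was 0.60 (standard error 0.15, 95% interval 0.28 to 0.92), and Sdf2l1 was not called (edgeR quasi-likelihood FDR = 0.126). Without METH rat 3 its log2 fold change was 0.45.

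Hspa5 encodes BiP, the Hsp70 of the ER lumen, which binds unfolded chains and holds the sensors inactive. It was at 326, 284, 445 and 449.8 CPM in saline rats and at 480.0, 604, 503 and 537 CPM in METH rats. Saline rats 1 and 2 were low and saline rats 3 and 4 lay near the METH rats, with a gap of 30.2 CPM between the groups. The log2 fold change was 0.50 (standard error 0.13, 95% interval 0.21 to 0.79), which is 1.41 times the saline level, with an edgeR quasi-likelihood FDR of 0.175. It ranged from 0.38 without saline rat 2 to 0.60 without saline rat 4.

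Manf, a secreted ER-resident protein with neurotrophic action that binds BiP, was the called gene. It was at 49.7, 51.4, 58.6 and 52.8 CPM in saline rats and at 65.1, 78.1, 77.8 and 68.1 CPM in METH rats. All METH rats exceeded all saline rats, by at least 6.51 CPM, and the spread within each group was small (53.1 ± 3.89 and 72.3 ± 6.66 CPM, SD, n = 4). The log2 fold change was 0.44 (standard error 0.09, 95% interval 0.25 to 0.64, edgeR quasi-likelihood FDR = 0.0473), and Manf was 60th of all genes by p. The call was just inside the threshold. It was lost without saline rat 1 (quasi-likelihood FDR = 0.138), 2 (0.149) or 4 (0.142) and without METH rat 2 (0.132), 3 (0.123) or 4 (0.0787), while the log2 fold change stayed between 0.40 and 0.49. In a fit that blocks on the rat number, the quasi-likelihood FDR was 0.118.

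Dnajb11 (ERdj3), a soluble co-chaperone that delivers unfolded proteins to BiP, was at 64.2, 64.3, 69.7 and 75.0 CPM in saline rats and at 82.9, 83.8, 84.8 and 79.4 CPM in METH rats. The METH rats lay close together (82.7 ± 2.33 CPM, SD, n = 4) and above the saline rats by at least 4.45 CPM. Its log2 fold change was 0.28 with a standard error of 0.08, and the edgeR quasi-likelihood FDR was 0.193.

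Sdf2l1, Hspa5, Manf, Dnajb11 and Xbp1 were the 5 genes with separated groups. METH rat 1 was the lowest METH rat in 4 of these 5 genes, and saline rats 3 or 4 were the highest saline rats in all 5. The Wald test of DESeq2 made more calls over all genes (191, or 1.59%, against 62 by edgeR), and among them were these 5 genes and Ppp1r15a, 6 of the 29 (20.7%).

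**Figure D2:**
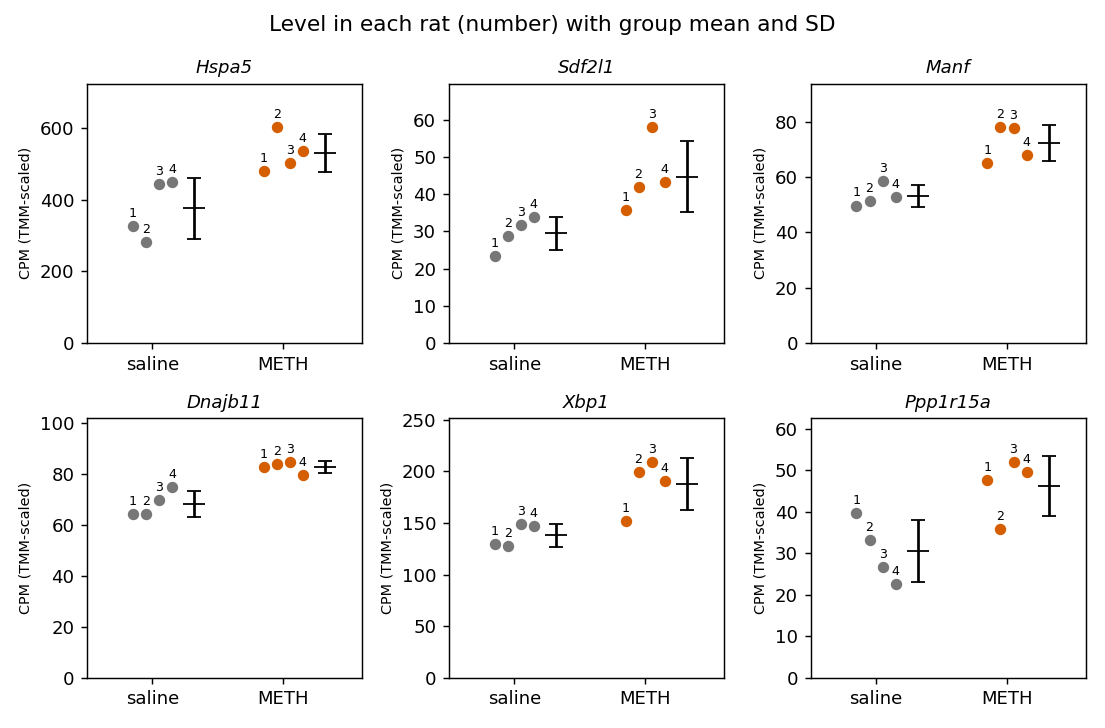
CPM (y axis, from 0) of the 5 genes with separated groups and of Ppp1r15a in each of the 4 saline and 4 METH rats, numbered, with the mean and SD of the group as a bar. In Sdf2l1 the lowest METH rat lies 1.84 CPM above the highest saline rat, and in Ppp1r15a METH rat 2 lies below saline rat 1.

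The other 5 chaperone genes overlapped between the groups. Hsp90b1 encodes GRP94, the Hsp90 of the ER lumen, and was at 366 to 473 CPM in saline rats and 418 to 516 CPM in METH rats (log2 fold change 0.16, 95% interval -0.05 to 0.37). Hyou1 (GRP170), a nucleotide exchange factor of BiP, had a log2 fold change of 0.15 (-0.04 to 0.33). Creld2, a secreted ER stress-inducible protein, was at 0.23 (-0.07 to 0.52). Dnajc3 (p58IPK), a co-chaperone of BiP that also inhibits PERK, was at 0.08 (-0.22 to 0.39), and Dnajb9 (ERdj4), which returns BiP to IRE1, was at 0.06 (-0.15 to 0.27). In Hyou1, Creld2 and Dnajc3, METH rat 2 was the highest of all rats and saline rat 1 the lowest. Dnajb9 and Dnajb11 are both co-chaperones of BiP, and their intervals overlap. A difference between them was not tested.

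The protein disulfide isomerases, which form and rearrange disulfide bonds, overlapped between the groups in all 3 genes. Pdia4 (ERp72) was at 42.6, 52.9, 51.4 and 59.2 CPM in saline rats and at 62.0, 60.8, 59.2 and 57.7 CPM in METH rats. Saline rat 4 lay within the range of the METH rats, and saline rat 1 was far below all others. Its log2 fold change of 0.22 (95% interval 0.01 to 0.43) had an edgeR quasi-likelihood FDR of 0.43, and it was 0.14 without saline rat 1. Pdia3 (ERp57), which works with the lectin chaperones on glycoproteins, was at 0.11 (-0.08 to 0.30). Pdia6, an isomerase that also acts on the luminal side of IRE1, was at 0.06 (-0.12 to 0.24).

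Calreticulin and calnexin are the lectin chaperones of the glycoprotein folding cycle, the first soluble in the lumen and the second anchored in the membrane. Calr was at 524, 521, 547 and 626 CPM in saline rats and at 614, 673, 669 and 694 CPM in METH rats. Only saline rat 4 reached the METH range, above METH rat 1. The log2 fold change was 0.26 (standard error 0.08, 95% interval 0.09 to 0.42, edgeR quasi-likelihood FDR = 0.232). Canx was at 495, 509, 508 and 532 CPM in saline rats and at 516, 477, 414 and 493 CPM in METH rats. METH rat 3 was the lowest, the groups overlapped, and the log2 fold change was -0.11 (-0.27 to 0.06). Canx was the one folding gene below 0. The intervals of Calr and Canx did not overlap, and a difference between the genes was not tested. Both promoter windows hold the ERSE shown above.

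ER-associated degradation takes misfolded proteins from the ER to the proteasome. Herpud1, a stress-inducible membrane component of its ubiquitin ligase complex, was at 60.5, 64.6, 64.0 and 62.6 CPM in saline rats and at 75.3, 68.7, 75.4 and 64.5 CPM in METH rats. METH rat 4 was just below saline rat 2 and the other METH rats were above every saline rat. Its log2 fold change was 0.17 with a standard error of 0.08 and an edgeR quasi-likelihood FDR of 0.431. The ligase Syvn1 (HRD1) was at 0.10 (95% interval -0.07 to 0.27), and its partner Sel1l at -0.19 (-0.47 to 0.08). Sel1l ranged from 76.2 to 112 CPM in saline rats and from 68.2 to 98.7 CPM in METH rats. Derl1, of the channel family through which substrates leave the ER, was at -0.14 (-0.30 to 0.03), with 94.5 to 107 CPM in saline rats and 87.0 to 99.4 CPM in METH rats. Edem1, a lectin that selects glycoproteins for degradation, was at -0.03 (-0.31 to 0.25). Of the 5 genes tested, 2 were above 0 and 3 below, with a median of -0.03, and none was called (edgeR quasi-likelihood test).

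The 3 sensors and the 3 transcription factors differed in sign. Ern1 (IRE1) was the lowest of the tested genes by count, with 45 to 127 reads per rat. It was at 3.29, 3.70, 6.13 and 3.17 CPM in saline rats and at 2.45, 5.19, 2.54 and 3.74 CPM in METH rats, and saline rat 3 decided its sign: the log2 fold change was -0.23 (95% interval -0.88 to 0.43) with all rats and 0.041 without that rat. Atf6 was at 16.7 to 29.0 CPM in saline rats and 14.3 to 25.8 CPM in METH rats (log2 fold change -0.23, 95% interval -0.65 to 0.18). Eif2ak3 (PERK) averaged 29.1 ± 2.79 CPM in saline rats and 27.2 ± 1.19 CPM in METH rats (SD, n = 4; log2 fold change -0.10, 95% interval -0.31 to 0.11). No difference was detected for the 3 sensors, and the intervals of Ern1 and Atf6 are the widest of all 29 genes.

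Xbp1, the factor downstream of IRE1 and itself an ERSE gene, was at 129.7, 128, 149 and 147 CPM in saline rats and at 152, 199, 209.6 and 191 CPM in METH rats. METH rat 1 was 3.16 CPM above the highest saline rat, and the other METH rats were far above it. The log2 fold change was 0.44 (standard error 0.10, 95% interval 0.23 to 0.66), with an edgeR quasi-likelihood FDR of 0.0869. Without METH rat 1 it was 0.53 and Xbp1 was called (quasi-likelihood FDR = 0.0107, with a range of 0.00472 to 0.249 over all alternatives). Atf4, the main effector of the integrated stress response, was at 139.8, 141, 110.1 and 114 CPM in saline rats and at 137, 144, 165 and 134 CPM in METH rats. Saline rats 1 and 2 lay within the METH range, and the log2 fold change was 0.20 (-0.01 to 0.42). Ddit3 (CHOP), the factor linked to cell death under prolonged stress, was at 23.9, 25.4, 24.5 and 24.8 CPM in saline rats and at 25.1, 27.1, 33.8 and 31.5 CPM in METH rats. METH rats 3 and 4 were high, METH rat 1 lay just below the highest saline rat, and the log2 fold change was 0.25 (0.02 to 0.48, edgeR quasi-likelihood FDR = 0.419).

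**Figure D3:**
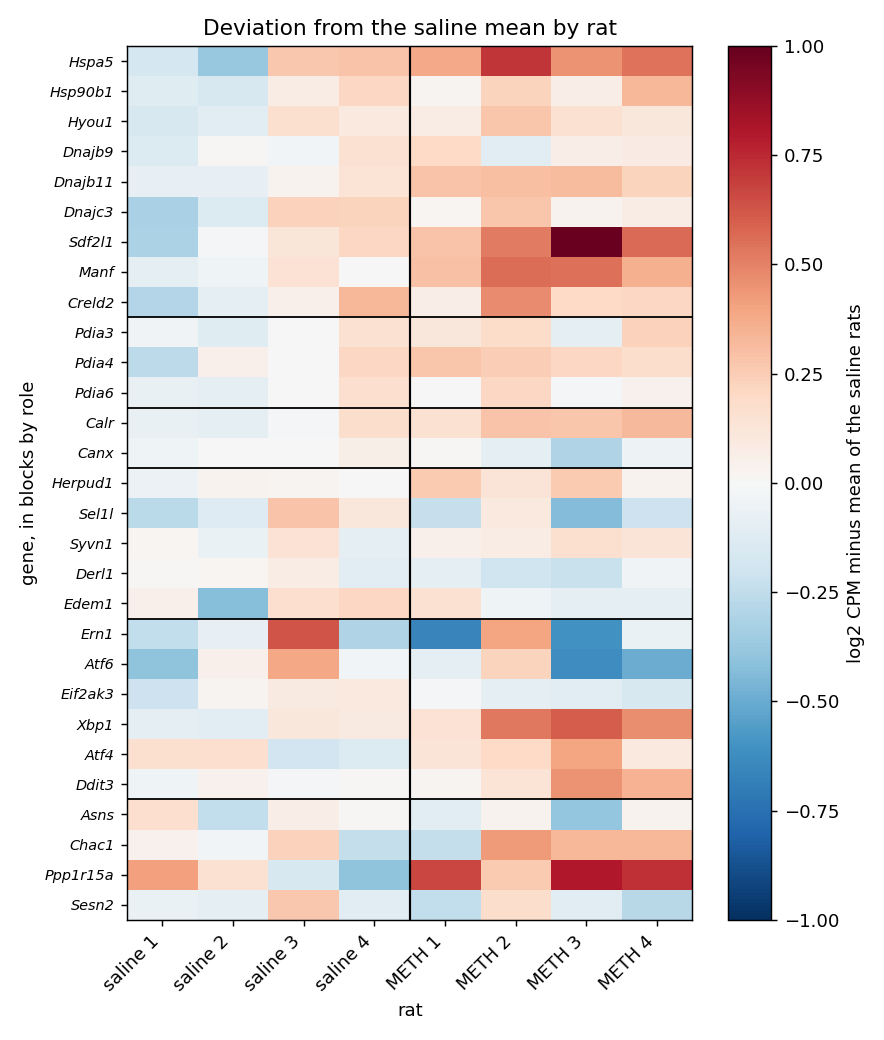
Heat map of the 29 genes (y axis, blocks by role) in the 8 rats (x axis), coloured by log2 CPM minus the mean of the saline rats (red above, blue below). The chaperone block has a mean of 0.18 to 0.36 in the METH rats and of -0.19 to 0.18 in the saline rats. The degradation block runs from -0.06 to 0.03 in the METH rats, within the range of -0.11 to 0.14 in the saline rats.

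Of the targets of the integrated stress response, Ppp1r15a (GADD34), which directs the phosphatase that restores translation, had a log2 fold change of 0.60 with a standard error of 0.16 (95% interval 0.25 to 0.95), level with that of Sdf2l1. It was at 39.7, 33.1, 26.7 and 22.5 CPM in saline rats and at 47.5, 35.8, 52.1 and 49.4 CPM in METH rats. METH rat 2 was below saline rat 1 and the other METH rats were above all saline rats. The edgeR quasi-likelihood FDR was 0.175, and the exact permutation test (two-sided) gave p = 0.0571. Chac1, a glutathione-degrading enzyme induced by ATF4, was at 12.7, 12.05, 14.4 and 10.4 CPM in saline rats and at 10.4, 16.6, 15.5 and 15.6 CPM in METH rats. METH rat 1 stood low among saline levels and the other METH rats were above every saline rat, with a log2 fold change of 0.23 (-0.12 to 0.58). Asns, which makes asparagine, was at -0.10 (-0.35 to 0.15), and Sesn2, which restrains mTORC1, was at -0.11 (-0.43 to 0.21). Trib3, a pseudokinase induced by ATF4 and CHOP, had 5, 3, 7 and 9 counts in saline rats and 5, 3, 7 and 6 counts in METH rats. Trib3 did not pass the filter on low counts, and in the fit with no filter it was tested and not called. At this depth a small difference in Trib3 could not be seen.

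Rats were compared over all 29 genes by the mean deviation of log2 CPM from the saline mean. It was -0.09, -0.07, 0.11 and 0.05 in saline rats 1 to 4 and 0.07, 0.22, 0.11 and 0.14 in METH rats 1 to 4, so that the groups overlapped over the whole list. In the chaperone block the same measure was -0.19, -0.11, 0.12 and 0.18 in saline rats and 0.18, 0.36, 0.31 and 0.28 in METH rats. Saline rat 4 and METH rat 1 were level there. METH rat 3 was the highest rat in 8 of the 29 genes and the lowest in 5, and saline rat 1 was the lowest in 11. The coefficient of variation was higher in saline rats in 15 of the 29 genes (Hspa5, 22.4% against 10.2%) and higher in METH rats in 14 (Ddit3, 13.5% against 2.49%).

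The genes that hold an ERSE or ERSE-II in the promoter window were set beside those with a window but neither element. Of the 10 with an element, 9 had a log2 fold change above 0 (range -0.11 to 0.50, median 0.20), and in 3 of them the groups were separated. Of the 13 without, 8 were above 0 (range -0.19 to 0.60, median 0.10), and in 1 of them, Sdf2l1, the groups were separated. The ranges overlap, and this is a description of the sequences and not a test. Manf, the called gene, had no window and is in neither group. All genes with an element but Herpud1 and Xbp1 are folding genes. Of those without, only Dnajb9, Pdia4 and Sdf2l1 are folding genes, so that element and role cannot be told apart here.

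Other genes of the same pathways, 161 on 5 lists, were read from the same fit, and 150 were tested. None was called by the edgeR quasi-likelihood test (against 0.516% of all genes in either direction) or by limma-voom, and 3 (2%, against 1.59% of all genes) were called by DESeq2 (Cebpb, Ddit4 and Phgdh, named after their values were seen). At an unadjusted p below 0.05, 9 were higher (6%) and 6 were lower (4%), near the shares of all genes given above. Their median log2 fold change was -0.0019, with 74 above 0 and 76 below. Of the other ER folding genes, the highest was Clgn, a calnexin homologue, at 0.73 (from 2.03 ± 0.295 to 3.39 ± 0.749 CPM, SD, n = 4, without overlap), and the lowest was Hspa13, an Hsp70 of microsomes, at -0.45, with all METH rats below all saline rats. The ER translocation genes ranged from -0.18 (Srp54a, of the signal recognition particle) to 0.26 (Sec61b, a subunit of the translocon). The other degradation genes ranged from -0.30 (Ubxn8) to 0.27 (Rnf5, a ubiquitin ligase), and the other sensors and regulators from -0.39 (Eif2ak2, the kinase PKR) to 0.27 (Bak1, a pore-forming apoptosis protein).

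The other targets of the integrated stress response ranged from -0.31 (Slc7a3, an arginine transporter) to 0.61 (Cebpb, a transcription factor that is also induced by other signals). At an unadjusted p below 0.05, 5 of the 36 were higher (13.9%, against 6.26% of all genes) and 2 were lower (5.56%, against 4.88%), and their median was -0.02. Cebpb was at 37.6 CPM on average in saline rats and at 57.3 CPM in METH rats, with overlapping groups (edgeR quasi-likelihood FDR = 0.120).

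**Figure D4:**
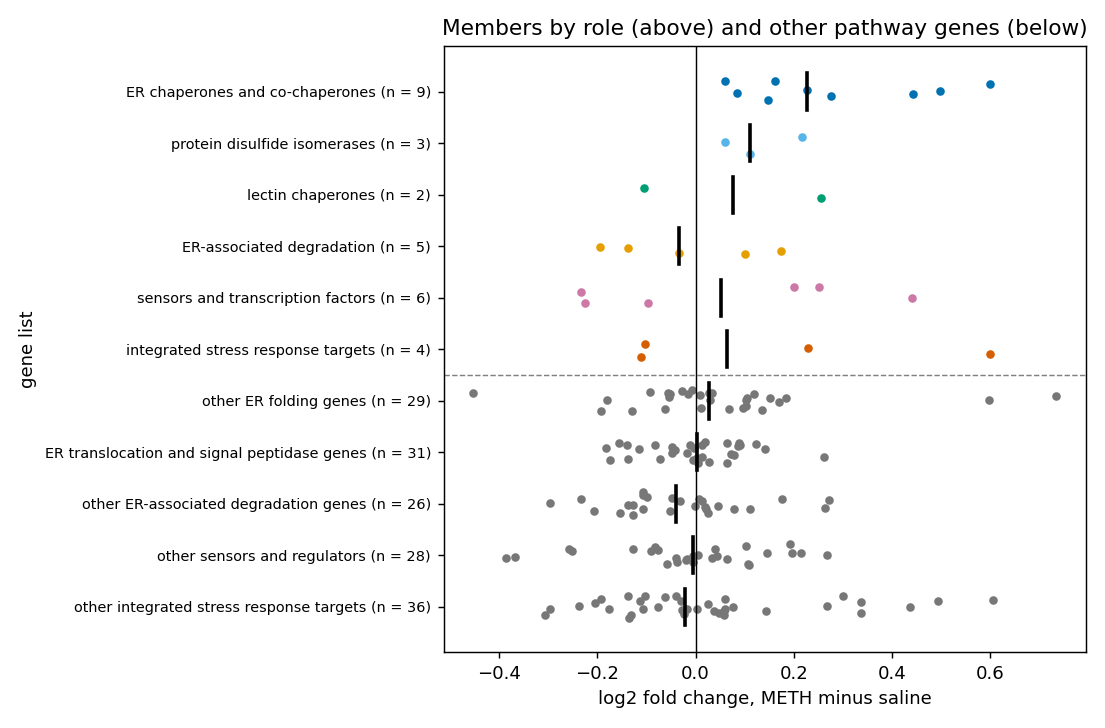
Log2 fold change (METH minus saline, x axis) of each tested gene, with 1 line per list on the y axis, the 29 ER stress response genes by role above the dashed line and the 5 other pathway lists below, and the median of each list as a black bar. The chaperone list has its median at 0.23, and the medians of the other pathway lists lie between -0.04 and 0.03.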

How the data were processed

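Poly(A) RNA of the striatum was sequenced in 4 saline and 4 METH rats (1 library per rat, TruSeq RNA v2, paired-end). Per the labels and methods, the authors used Cutadapt (1.18) for trimming, STAR (2.7.0e) for alignment to rn6 and featureCounts of Subread (1.6.4) for counting, and deposited raw counts per gene symbol. The annotation and the strand and multi-mapping settings are not given in the sources used here, so that overlapping or near-identical genes are uncertain. The libraries are labelled by rat, and no batch is given.

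All other values were computed from these counts with edgeR (4.0.16), DESeq2 (1.42.0) and limma (3.58.1) in R (4.3.3): filterByExpr (minimum count 10), TMM, the quasi-likelihood F-test with Benjamini-Hochberg adjustment over all genes tested, and a call at FDR below 0.05 with mean log2 CPM above 1. The standard error is the size of the log2 fold change divided by the square root of F, and the 95% intervals use the degrees of freedom of the fit. CPM are TMM-scaled and a prior count of 2 was added for log2 CPM. The fit was also run on simulated counts with set fold changes to check the code, and the outcome is not given or used here. Rats of 1 group were distinct libraries: the chi-square of their counts, divided by its degrees of freedom, was 10.4 to 28.6. Depth limits genes with few counts, and the floor covers counting error only.

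Alternatives were DESeq2, limma-voom, other scalings, filters and thresholds, each rat left out, and a replicate block by rat number. All listed ER stress genes are described. Of the other pathway lists, the genes with the highest and lowest log2 fold change and those called are named. The genes and lists were chosen with earlier results of these data known. Promoter windows and gene synonyms are of RefSeq on GRCr8, and no coordinates of rn6 are given.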

Additional observations from a re-analysis of the deposited data

Results flagged for a closer look

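In 58 groups of 4 rats (29 genes in each of 2 groups), the outermost rat was tested by dividing its distance to the next rat by the range of the group on the log2 CPM scale. This share was past Dixon's 95% value in 2 groups, where chance gives about 1 in 20. In Chac1, METH rat 1 (10.4 CPM, against 15.5 to 16.6 CPM in the other METH rats) stood apart with a share of 0.861. In Sesn2, saline rat 3 (14.97 CPM, against 11.4 to 11.8 CPM in the other saline rats) stood apart with a share of 0.884. Neither gene was called.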

How the results depend on the processing

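The number of called ER stress response genes, 1, was 6 with DESeq2 and 0 with limma-voom, with total counts only, with the replicate block and when an absolute fold change of at least 1.5 was also required, and it ranged from 0 to 2 with 1 rat left out. The number of other pathway genes called, 0, was 3 with DESeq2 and 1 (Ddit4) with no filter on low counts, and it ranged from 0 to 2 with 1 rat left out. Over all genes, the calls went from 62 to 191 with DESeq2, to 37 with the replicate block and to 37 without saline rat 2. The cause of these differences was not tested. The log2 fold change of Manf was 0.44 with limma-voom, 0.41 with total counts only and 0.44 with the block. RLE and upper-quartile scaling, no filter and no log2 CPM threshold left 1 call, Manf, among the ER stress genes.

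The number of genes with separated groups was 5 with and without composition factors. With 1 rat left out, the sign changed 4 times: Dnajc3 was at -0.012 without saline rat 1, Edem1 at 0.019 without saline rat 3 and at 0.035 without saline rat 4, and Ern1 at 0.041 without saline rat 3. Over the fits with 1 rat left out these genes ranged from -0.012 to 0.16 (Dnajc3), from -0.16 to 0.035 (Edem1) and from -0.49 to 0.041 (Ern1). No sign changed among the alternatives that kept all rats. Same-numbered rats are different animals, and the deviations of the pairs correlated at -0.20 to 0.04, with 2 of 8 rats correlating best with their own number. The block therefore pairs rats by number only. Depth limits Trib3, with at most 9 counts in any rat.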
